A study of Mus musculus with 12 samples.

Results

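The genes described are 9 transcription factors that form the output arm and the REV-ERB loop of the circadian clock: Dbp, Tef, Hlf, Nfil3, Nr1d1, Nr1d2, Rora, Bhlhe40 and Bhlhe41. They were found by gene name and Entrez number on the array and are 9 of 26228 named genes, carried by 18 of 59305 spots. The mice were female B6C3F1/Nctr, and 12 Agilent 1-colour arrays carried their liver or lung RNA, in 4 groups of 3. The groups were liver with acrylamide at 0.7 mM, untreated liver, lung with acrylamide at 0.7 mM and untreated lung. Acrylamide is a small reactive amide found in heated food and tobacco smoke. The sources used here do not give the route or length of exposure, the age of the mice or the hour of day at which tissue was taken. The tissue entry of all arrays says liver, but titles and source names give lung for 6 of them. Arrays are named by tissue, treatment and the number in the title. The labels do not tell whether arrays within a group stand for different mice, so p-values measure only the spread between arrays, which may be technical. Numbers 29 and 30 of acrylamide and 4 of control occur in both tissues.

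In mammals the clock activators BMAL1 and CLOCK bind E-boxes and switch on their own repressors, the period and cryptochrome genes, and also a set of output factors. DBP, TEF and HLF are PAR bZIP factors that activate genes through D-boxes, and NFIL3 (E4BP4) represses through the same element. REV-ERB alpha and beta, the products of Nr1d1 and Nr1d2, repress genes with ROR elements, Bmal1 (Arntl) among them, while ROR alpha activates through those elements. BHLHE40 and BHLHE41 (DEC1 and DEC2) repress at E-boxes. In liver many of these transcripts swing widely over the day, and DBP, TEF and HLF drive enzymes of drug metabolism there.

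Levels are given as log2 intensity relative to the 75th percentile of the same array, so that 0 means intensity equal to that percentile. Over the 6 lung arrays the percentile ranged between 942.5 and 1547, and over the 6 liver arrays between 329.5 and 704.6. The dimmest array was liver acrylamide 30, whose limit for calling a spot above background was 16.77, while the remaining arrays had limits between 2.35 and 4.45. The 8 hepatocyte markers summed to 2055 to 3306 times the percentile on liver acrylamide arrays and 2561 to 2819 on liver control arrays. On lung arrays they summed to 12.4 to 26.4 with acrylamide and 12.02 to 25.6 in controls. The 8 alveolar type 2 markers summed to 751 to 974 on lung acrylamide and 869 to 930 on lung control arrays. On liver arrays their sum was 50.7 to 65.0 with acrylamide and 51.3 to 59.5 in controls. The brightest of them there was Abca3, at 5.26 to 5.85 log2 units with acrylamide and 5.41 to 5.69 in controls. The liver sum therefore says little of the dimmer markers. The titles, not the tissue entry, were therefore used. The lung genes Sftpc and Scgb1a1 stood at 1.583% and 1.698% of their lung control mean on liver acrylamide 27 and at 0.163% and 0.816% on liver acrylamide 29. On each of the other 4 liver arrays both were at 0.0481% or less. At the larger of these shares, lung RNA at the lung control level would amount to 0.464% of the Dbp level on liver acrylamide 27 and 1.94% of the Tef level there.

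The members were chosen by their acrylamide minus control differences on these same arrays, as well as by their place in the clock. The acrylamide comparisons are therefore descriptions, and their counts support nothing. In liver, Dbp, Tef, Nr1d1 and Nr1d2 were higher with acrylamide on every array than on any control array, and Nfil3 was lower on every array. Dbp was 5.07-fold higher. Hlf, Rora and Bhlhe40 overlapped between the groups, and Bhlhe41 was not above background on any liver array, so 8 of the 9 genes entered the fit. Of all 21169 genes fitted in liver, 12.4% did not overlap, 5.69% being higher and 6.67% lower. The limma fit called 0% of genes, or 0 of 21169, at Benjamini-Hochberg adjusted p below 0.05, and 1272 (6.01%) had an unadjusted p below 0.05. The 8 fitted members had adjusted p of 0.470 to 0.853.

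Among the PAR bZIP activators in liver, Dbp stood at 3.00, 2.19 and 2.16 on acrylamide 27, 29 and 30, against 0.00, 0.24 and 0.08 on controls 1, 3 and 4. The lowest acrylamide array lay far above the highest control, and the control arrays were close to each other. The difference was 2.34 ± 0.26 log2 units (SE, n = 3 per group), and it was 2.48 without acrylamide 30 and 2.07 without acrylamide 27. The second Dbp spot, of the same accession, differed by 2.304. Tef, which like Dbp carries the PAR domain, stood at 4.74, 4.49 and 4.998 on acrylamide 27, 29 and 30, against 3.84, 4.27 and 4.17 on controls 1, 3 and 4. Its difference was 0.65 ± 0.20 log2 units, and the lowest acrylamide array lay close above the highest control. Another Tef spot gave 0.998 with no overlap, and a dim one gave 0.86 with overlap. Hlf, the last of the trio, stood at 0.03, -0.33 and -0.70 on acrylamide 27, 29 and 30 and at -0.83, -0.46 and -0.42 on controls 1, 3 and 4. Acrylamide 30 lay below controls 3 and 4, and the difference of 0.23 ± 0.23 was no larger than its error. It was 0.05 without acrylamide 27, 0.10 without control 1 and 0.41 without acrylamide 30.

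Nfil3, the repressor at D-boxes, was the member that was lower without overlap in liver. It stood at 2.42, 2.68 and 2.25 on acrylamide 27, 29 and 30, against 3.43, 3.40 and 3.71 on controls 1, 3 and 4. The difference was -1.06 ± 0.18 log2 units, or 0.478-fold, and it ran from -1.18 to -0.96 when each array was left out in turn. Its second spot gave -1.03. Every acrylamide array therefore combined a high Dbp with a low Nfil3 when set against the control means.

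In the REV-ERB loop, liver Nr1d1 stood at -0.58, -0.79 and -0.43 on acrylamide 27, 29 and 30, against -0.86, -0.88 and -2.31 on controls 1, 3 and 4. The acrylamide arrays lay just above controls 1 and 3, and control 4 was far lower. The difference of 0.75 ± 0.42 log2 units was 0.27 without control 4. Nr1d2, its paralogue, stood at 2.06, 1.83 and 2.04 on acrylamide 27, 29 and 30, against 1.16, 1.703 and 0.37 on controls 1, 3 and 4. Control 4 was again the lowest, and the difference of 0.90 ± 0.34 was 0.55 without it. The other Nr1d2 spots both gave 1.38 without overlap. Rora, the activator at ROR elements, stood at 4.98, 4.93 and 4.86 on acrylamide 27, 29 and 30 and at 4.96, 5.29 and 5.22 on controls 1, 3 and 4. The groups overlapped, at a difference of -0.23 ± 0.15, though not after quantile scaling. A second bright Rora spot gave -0.13, while a dim spot of another transcript gave 0.61, so the sign rests on the bright spots.

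Of the DEC repressors, Bhlhe40 stood at 1.59, 1.53 and 1.26 on liver acrylamide 27, 29 and 30, against 0.31, 1.35 and -0.06 on controls 1, 3 and 4. Control 3 lay within the acrylamide range, the other controls below it, and the difference was 0.93 ± 0.37. It was 1.34 without control 3 and 0.63 without control 4. Bhlhe41 was not above background on any of the 6 liver arrays, and no liver difference is given.

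**Figure D1:**
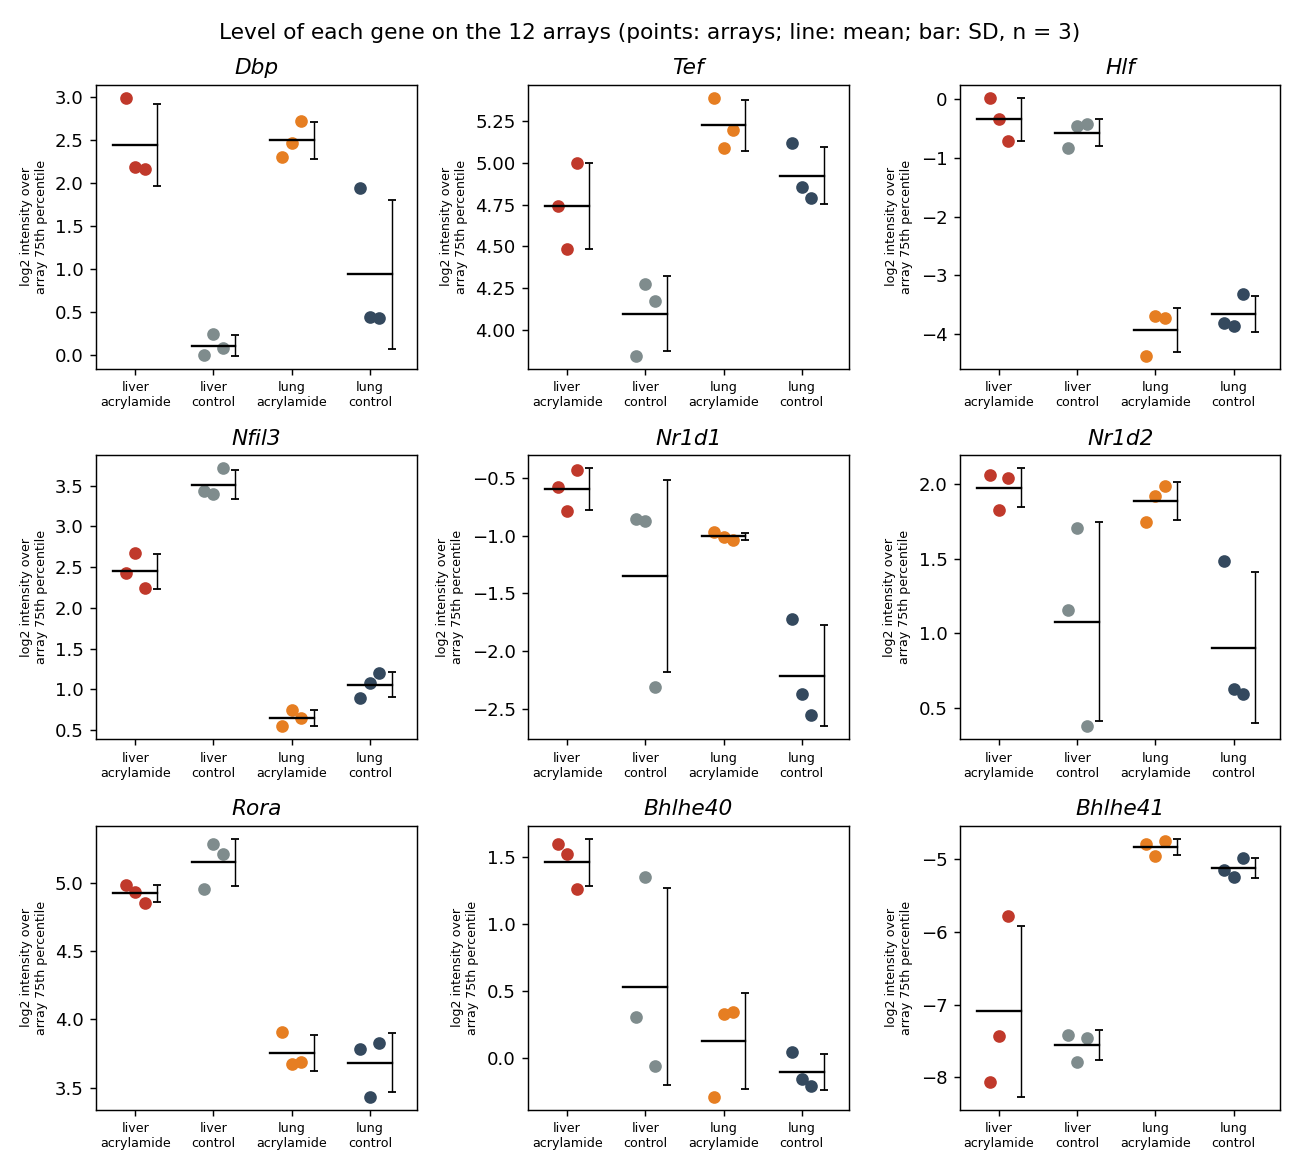
Level of each of the 9 genes on the 12 arrays, as log2 intensity over the 75th percentile of the array, in 4 groups of 3 (points, arrays in order of their number; line, mean; bar, SD; axes differ between panels). Dbp lies at 2.16 to 3.00 on liver acrylamide arrays and at 0.00 to 0.24 on liver control arrays, and Bhlhe41 is below background on all liver arrays.

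In lung, Dbp, Nr1d1, Nr1d2 and the dim Bhlhe41 were higher with acrylamide without overlap, and Nfil3 was lower without overlap. Of all 22252 genes fitted in lung, 10.9% did not overlap, 4.13% being higher and 6.79% lower. The limma fit called 0% of genes, or 0 of 22252, while 1095 (4.92%) had an unadjusted p below 0.05, and the 9 members had adjusted p of 0.929 to 0.997.

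Lung Dbp stood at 2.31, 2.46 and 2.73 on acrylamide 28, 29 and 30, against 1.94, 0.44 and 0.43 on controls 4, 5 and 6. Control 4 was close to the acrylamide arrays and far above the other controls. The difference was 1.56 ± 0.43 log2 units (SE, n = 3 per group), or 2.96-fold, and 2.07 without control 4. The second spot gave 1.73, also without overlap. Tef stood at 5.39, 5.09 and 5.20 on acrylamide 28, 29 and 30, against 5.12, 4.86 and 4.79 on controls 4, 5 and 6. Control 4 exceeded acrylamide 29, and the difference was 0.30 ± 0.14. Hlf was dim in lung, at -4.37, -3.70 and -3.73 on acrylamide 28, 29 and 30 and at -3.81, -3.87 and -3.31 on controls 4, 5 and 6, with a difference of -0.27 ± 0.25 that was -0.05 without acrylamide 28 and -0.10 without control 6.

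Lung Nfil3 stood at 0.54, 0.75 and 0.65 on acrylamide 28, 29 and 30, against 0.90, 1.07 and 1.202 on controls 4, 5 and 6. Its difference, -0.41 ± 0.12 log2 units, was less than that of liver, and its second spot gave -0.33 without overlap. Lung Nr1d1 stood at -0.97, -1.01 and -1.04 on acrylamide 28, 29 and 30, against -1.72, -2.37 and -2.55 on controls 4, 5 and 6. The acrylamide arrays were nearly equal, and the difference was 1.21 ± 0.22, or 2.31-fold. The Nr1d1 gene overlaps Thra by 1075 bases in RefSeq's GRCm38.p6 annotation, and Thra, which codes for a thyroid hormone receptor, differed the other way, by -0.26 ± 0.12 in lung and -0.31 ± 0.15 in liver. Lung Nr1d2 stood at 1.75, 1.92 and 1.99 on acrylamide 28, 29 and 30, against 1.49, 0.62 and 0.59 on controls 4, 5 and 6. The difference was 0.99 ± 0.26, and the other spots gave 0.88 and 0.98, both without overlap.

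Lung Rora differed by 0.07 ± 0.15, with acrylamide arrays at 3.67 to 3.91 and controls at 3.43 to 3.83. Bhlhe40 stood at -0.29, 0.33 and 0.34 on lung acrylamide 28, 29 and 30, and at 0.05, -0.16 and -0.21 on controls 4, 5 and 6. Acrylamide 28 was the lowest of the 6 arrays, and the difference of 0.23 ± 0.20 was 0.44 without it, 0.13 without acrylamide 29 and 0.13 without acrylamide 30. Bhlhe41 was above background on all 6 lung arrays, at -4.79, -4.96 and -4.75 on acrylamide 28, 29 and 30, against -5.14, -5.24 and -4.98 on controls 4, 5 and 6. The nearest arrays of the groups were almost equal, and the difference was 0.29 ± 0.11. After quantile or median scaling the groups overlapped. The other Bhlhe41 spot was above background on only 1 lung array.

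**Figure D2:**
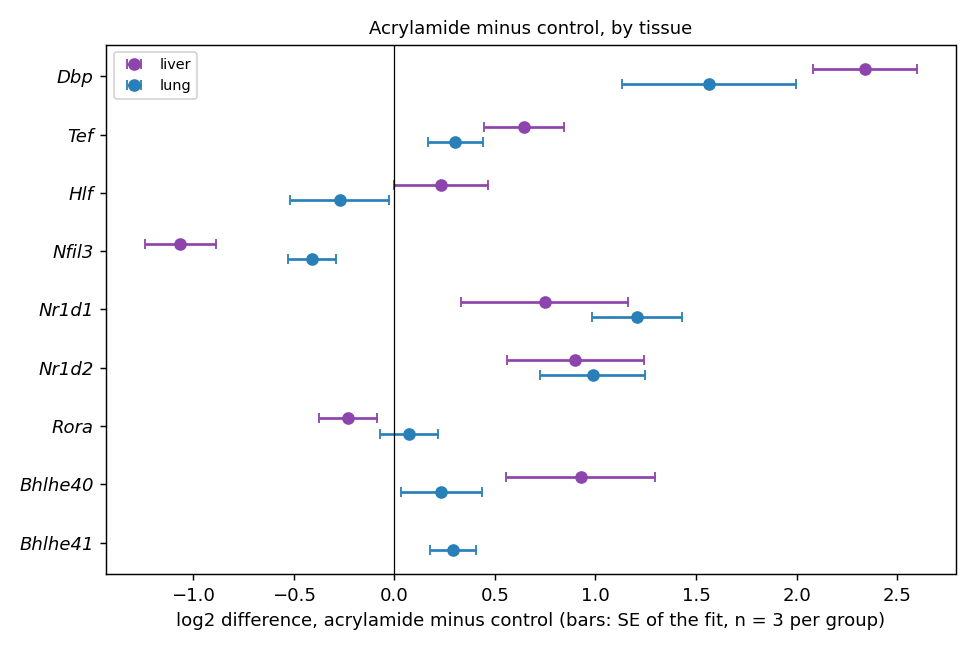
Log2 difference, acrylamide minus control, of each gene in liver and lung (points; bars, SE of the fit, n = 3 per group). Dbp has the largest difference in both tissues, at 2.34 in liver and 1.56 in lung, Nfil3 is below 0 in both, and Bhlhe41 has no liver value.

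The control arrays differed among themselves in these genes. In liver, control 4 was the lowest of the 3 controls for Nr1d1, Nr1d2 and Bhlhe40, and the highest for Nfil3. In lung, the array also numbered 4 was the highest control for Dbp, Tef, Nr1d1, Nr1d2 and Bhlhe40, and the lowest for Nfil3. The SD over 3 arrays was 0.87 for Dbp in lung controls, against 0.21 in lung acrylamide arrays, and 0.83 for Nr1d1 in liver controls, against 0.18 in liver acrylamide arrays. Controls were not always the more variable group. For Dbp in liver the SD was 0.12 in controls and 0.48 with acrylamide, and for Bhlhe40 in lung 0.13 and 0.36. Slide rows, as given in the titles, were unevenly filled. Within row 1 the Dbp difference was 2.46 in liver and 2.08 in lung, and within row 2 it was 2.10 in liver and 1.28 in lung. Liver Nr1d1 differed by 0.36 within row 1 and 1.52 within row 2, where each group had 1 array. Nfil3 differed by -1.08 and -1.03 within rows 1 and 2 of liver, and by -0.47 and -0.30 within rows 1 and 2 of lung.

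The acrylamide differences of the tissues were set against each other in a fit of all 12 arrays, as lung minus liver. Nfil3 had the smallest error for its size, at 0.65 ± 0.21 log2 units, from -0.41 in lung and -1.06 in liver. Dbp differed by -0.78 ± 0.54, Bhlhe40 by -0.69 ± 0.46 and Nr1d1 by 0.46 ± 0.51. With 1 array left out these ran from -1.03 to -0.27 for Dbp (-0.27 without lung control 4), from -1.10 to -0.40 for Bhlhe40 (without liver control 3 and liver control 4) and from 0.22 to 0.94 for Nr1d1 (without liver control 1 and liver control 4). None of the 8 members measured in both tissues passed (limma adjusted p of 0.992 to 0.995), and 0% of all 23300 genes, or 0, were called. At an unadjusted p below 0.05 there were 1036 genes. A difference in response between liver and lung was not shown for these genes at 3 arrays a group.

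The choice of members made no use of the tissue contrast, which was tested in the same fit of 12 arrays. Hlf, Nfil3 and Rora were lower in lung than in liver, and Tef was higher, both among acrylamide arrays and among control arrays, which are separate arrays. Bhlhe41, below background in liver, is left out of these counts. In controls, 4 of the 8 members measured in both tissues passed, where 73.3% of all genes did (limma, adjusted p below 0.05). Of these 1 was higher in lung, as were 30.7% of all genes, and 3 lower, as were 42.6%. Among acrylamide arrays 5 of 8 passed, where 74.9% of all genes did, with 1 higher (30.7% of all genes) and 4 lower (44.2%). The members passed no more often than genes in general, so these counts are no result about them. Slide follows tissue, so the tissues cannot be told apart from the slides. Fewer cells that express a gene and less RNA per cell also cannot be told apart in these bulk samples. Over all genes the median of lung minus liver was -0.33 in controls and -0.35 among acrylamide arrays with the 75th percentile as the base, and -0.02 and -0.01 after quantile scaling.

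Hlf averaged -3.66 ± 0.31 in lung controls and -0.57 ± 0.23 in liver controls (SD, n = 3 each), a difference of -3.09 ± 0.25 log2 units (SE, limma adjusted p = 1.48e-06). With acrylamide it averaged -3.93 ± 0.38 in lung and -0.34 ± 0.36 in liver, a difference of -3.60 ± 0.25 (limma adjusted p = 4.6e-07). Nfil3 averaged 1.06 ± 0.15 in lung controls and 3.51 ± 0.17 in liver controls, a difference of -2.46 ± 0.15 (limma adjusted p = 1.45e-07). Among acrylamide arrays its tissue difference was -1.80 ± 0.15 (limma adjusted p = 1.52e-06). Rora was lower in lung by -1.47 ± 0.14 in controls (limma adjusted p = 5.3e-06) and by -1.17 ± 0.14 with acrylamide (limma adjusted p = 3.08e-05). For these 3 genes no lung array overlapped a liver array of the same treatment. After quantile scaling the Rora difference was -0.83 in controls and -0.56 with acrylamide.

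Tef was 0.83 ± 0.17 log2 units higher in lung controls than in liver controls (limma adjusted p = 0.00146), and 1.46 after quantile scaling. With acrylamide the excess was 0.48 ± 0.17 (limma adjusted p = 0.0266), and that call was lost when liver acrylamide 27 or 29, or lung acrylamide 28 or 30, was left out. The values were then 0.48, 0.36, 0.40 and 0.50, with limma adjusted p of 0.0559, 0.103, 0.0939 and 0.0542. After quantile scaling the excess with acrylamide was 1.12. Bhlhe41 was measured in lung only, and its lung level was at least 4.90-fold that of liver in controls and at least 3.19-fold with acrylamide, the bound being set by the lowest signal above background on the liver arrays. No test is given, since the gene passed the background filter through lung alone, and with normexp background correction at an offset of 50 the sign of lung minus liver turned, to -0.72 in controls and -0.35 with acrylamide. These values rest on the brighter Bhlhe41 spot. The other spot, above background on no liver array and on 1 lung array, went the other way, at -1.56 in controls and -1.71 with acrylamide.

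Bhlhe40 was lower in lung than in liver among acrylamide arrays, by -1.33 ± 0.32 log2 units (limma adjusted p = 0.00355). In controls it differed by -0.64 ± 0.32 (limma adjusted p = 0.0959), and by -0.94 (limma adjusted p = 0.0219) without liver control 4 but -0.23 without liver control 3. Nr1d1 differed by -0.87 ± 0.36 in controls (limma adjusted p = 0.0512) and by -0.41 ± 0.36 with acrylamide (limma adjusted p = 0.326). Without liver control 4 the control value was -1.35 (limma adjusted p = 0.000586), and without lung control 4 it was -1.12 (limma adjusted p = 0.0275). A fit of the 6 acrylamide arrays alone called the acrylamide value (limma adjusted p = 0.0293). Nr1d2 did not pass, at -0.18 ± 0.33 in controls and -0.09 ± 0.33 with acrylamide (limma adjusted p = 0.638 and 0.81).

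Dbp was at much the same level in lung and liver with acrylamide, at 2.50 ± 0.21 and 2.45 ± 0.48 (SD, n = 3 each), a difference of 0.05 ± 0.38 (SE, limma adjusted p = 0.905). In controls it averaged 0.94 ± 0.87 in lung and 0.11 ± 0.12 in liver, a difference of 0.83 ± 0.38 (limma adjusted p = 0.074). It passed without lung control 5 or 6, at 1.08 each (limma adjusted p = 0.0419 and 0.0403), which leaves lung control 4 with 1 other array, and was 0.33 without lung control 4. By level, the order for Dbp was lung acrylamide, liver acrylamide, lung control and liver control, of which the first pair overlapped. For Nfil3 the order was liver control, liver acrylamide, lung control and lung acrylamide, and no neighbours overlapped. For Nr1d2 the order was liver acrylamide, lung acrylamide, liver control and lung control, and only the middle pair, lung acrylamide and liver control, did not overlap.

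**Figure D3:**
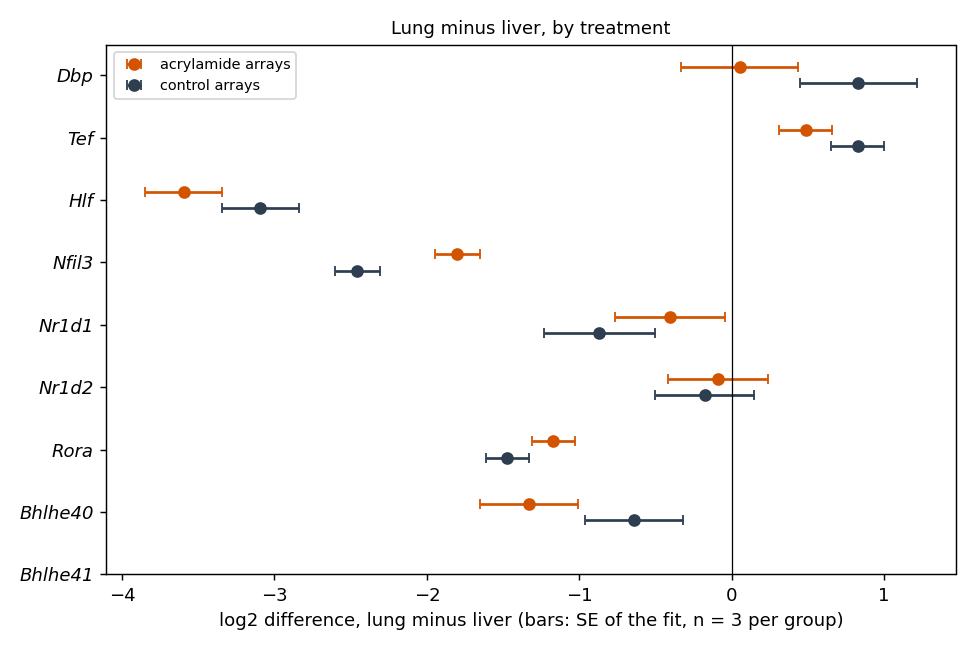
Log2 difference, lung minus liver, of each gene among acrylamide arrays and among control arrays (points; bars, SE of the fit, n = 3 per group). Hlf lies at -3.60 and -3.09, Nfil3 at -1.80 and -2.46 and Rora at -1.17 and -1.47, and Bhlhe41, below background in liver, has no point.

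Promoter sequence is shown for the 5 genes whose groups did not overlap in liver, because the clock acts through short promoter elements. RefSeq windows (GRCm38.p6, 250 bases before to 50 after a start) were found for 8 of the 9 members, Tef having windows at both of its starts, and Bhlhe40 was not matched. The E-box CACGTG, the D-box forms TTATGTAA and TTACGTAA, and the core AGGTCA of the ROR element were searched on both strands. Windows are printed in the gene's own direction with matches in capitals. Those of Tef lie at chr15:81802423-81802722 and chr15:81811164-81811463 on the plus strand, that of Nr1d2 at chr14:18239057-18239356, that of Nr1d1 at chr11:98775328-98775627 and that of Nfil3 at chr13:52980990-52981289, all on the minus strand, and that of Dbp at chr7:45704997-45705296 on the plus strand.
Tef, upstream start: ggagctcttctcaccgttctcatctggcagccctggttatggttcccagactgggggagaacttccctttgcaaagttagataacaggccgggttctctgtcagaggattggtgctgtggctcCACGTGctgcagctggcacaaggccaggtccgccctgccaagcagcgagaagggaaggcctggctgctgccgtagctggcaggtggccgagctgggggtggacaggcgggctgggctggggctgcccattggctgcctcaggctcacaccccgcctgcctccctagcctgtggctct
Tef, downstream start: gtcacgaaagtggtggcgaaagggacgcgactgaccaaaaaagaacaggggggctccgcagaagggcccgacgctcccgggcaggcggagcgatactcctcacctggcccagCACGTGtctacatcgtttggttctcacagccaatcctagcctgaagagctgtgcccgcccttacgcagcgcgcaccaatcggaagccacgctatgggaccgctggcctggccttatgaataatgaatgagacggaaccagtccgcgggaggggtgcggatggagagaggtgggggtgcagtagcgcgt
Nr1d2: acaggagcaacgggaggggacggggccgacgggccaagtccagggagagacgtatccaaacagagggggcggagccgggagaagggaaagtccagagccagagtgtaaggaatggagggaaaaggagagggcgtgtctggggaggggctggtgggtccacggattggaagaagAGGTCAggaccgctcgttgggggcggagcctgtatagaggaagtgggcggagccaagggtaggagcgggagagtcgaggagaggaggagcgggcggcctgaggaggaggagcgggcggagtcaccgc
Nr1d1: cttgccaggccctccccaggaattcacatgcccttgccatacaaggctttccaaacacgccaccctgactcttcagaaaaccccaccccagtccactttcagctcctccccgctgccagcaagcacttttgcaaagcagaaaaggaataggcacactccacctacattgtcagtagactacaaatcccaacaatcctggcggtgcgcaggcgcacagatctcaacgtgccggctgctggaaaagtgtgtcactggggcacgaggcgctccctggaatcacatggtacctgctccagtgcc
Nfil3: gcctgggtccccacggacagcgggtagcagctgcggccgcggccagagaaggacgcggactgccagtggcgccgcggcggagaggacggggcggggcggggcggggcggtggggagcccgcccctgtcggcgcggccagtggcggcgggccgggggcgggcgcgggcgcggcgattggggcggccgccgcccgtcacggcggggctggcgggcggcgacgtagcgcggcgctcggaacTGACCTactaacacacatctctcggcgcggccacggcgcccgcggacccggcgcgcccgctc
Dbp: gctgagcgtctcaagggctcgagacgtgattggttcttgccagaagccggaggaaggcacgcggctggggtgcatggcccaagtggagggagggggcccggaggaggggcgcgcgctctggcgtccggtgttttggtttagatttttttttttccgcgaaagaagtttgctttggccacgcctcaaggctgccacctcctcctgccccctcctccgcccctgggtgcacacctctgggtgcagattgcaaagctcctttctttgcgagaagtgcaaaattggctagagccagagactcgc

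Both Tef windows hold an E-box, at positions -127 and -138 from the start, as does the Bhlhe41 window at -153, and 7.15% of all 32851 windows hold one. The Nr1d2 window has the AGGTCA core at position -77, and the Nfil3 window has it on the opposite strand (TGACCT) at -12. That core is found in 16.3% of all windows. Neither D-box form occurs in a member's window, and they occur in 0.938% and 0.119% of all windows. No motif searched was found in the windows of Dbp, Hlf, Nr1d1 and Rora. A match is a description of these letters and not evidence of binding. Sequence outside the windows and other forms of the motifs were not searched, so an absence here does not mean that the gene lacks the element.

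The core clock genes that act with these factors were counted from a list of 14, of which 13 were on the array and tested. The list and the next ones were chosen with earlier results of these data known, so their counts support nothing. In liver 5 of the 13 were higher and 8 lower, with a median of -0.11 log2 units against -0.02 over all genes. Where 12.4% of all genes did not overlap, 3 of the 13 did not. These were Per3, a period gene, at 1.44 ± 0.24 (SE), Cry1, a cryptochrome repressor, at -0.82 ± 0.25, and Clock, an activator, at -0.32 ± 0.16. Per3 and Cry1 were dim in liver, with levels of -5.11 to -3.15 and -4.04 to -2.57 over the liver arrays. Arntl, which codes for BMAL1, differed by -0.53 ± 0.30 with overlap. Per1 lay at 0.48 ± 0.92 and Per2 at 0.06 ± 0.25 in liver.

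In lung 6 of the 13 were higher and 7 lower, with a median of -0.01, the same as over all genes to 2 decimals. Where 10.9% of all genes did not overlap, 4 of the 13 did not. Per2 was higher, at 0.92 ± 0.31. Arntl was lower, standing at -0.65, -0.95 and -0.95 on acrylamide 28, 29 and 30 against -0.11, 0.10 and 0.22 on controls 4, 5 and 6, a difference of -0.92 ± 0.14. Cry1 was at -0.86 ± 0.14 and Npas2, a CLOCK paralogue, at -0.84 ± 0.18. Both were dim, with levels of -4.32 to -3.14 for Cry1 and -6.62 to -5.30 for Npas2 over the lung arrays. Per1 was at 0.60 ± 0.52 with overlap. Per3 was at 0.57 ± 0.33, and its control 4 exceeded acrylamide 28 and 29. No list gene had a limma adjusted p below 0.05 in either tissue.

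**Figure D4:**
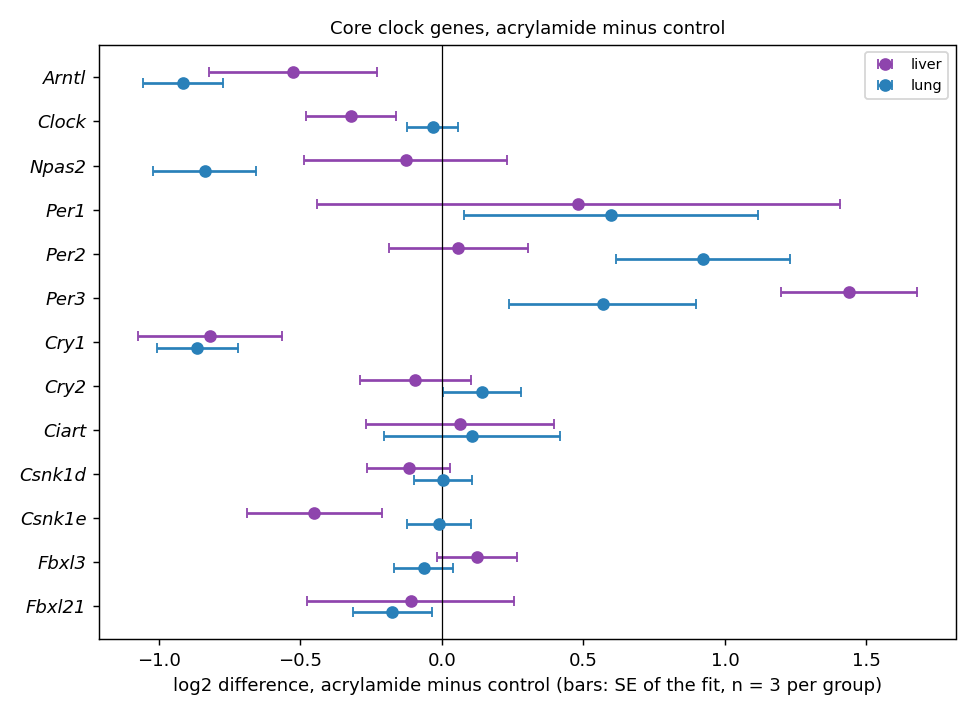
Log2 difference, acrylamide minus control, of 13 core clock genes in liver and lung (points; bars, SE of the fit, n = 3 per group). In lung Per2 lies at 0.92 and Arntl, Cry1 and Npas2 at -0.92, -0.86 and -0.84, and in liver Per3 lies at 1.44 and Cry1 at -0.82.

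Genes described as targets of DBP, TEF and HLF were looked at beside their regulators. In liver 9 of 10 lay above 0, 2 of them without overlap, where 12.4% of all genes did not overlap. The median difference was 0.19 against -0.02 over all genes. Cyp7a1, the rate-limiting enzyme of bile acid synthesis, was at 0.70 ± 0.46, Cyp2a4, a steroid hydroxylase, at 0.54 ± 0.17 without overlap, and Alas1, the first enzyme of heme synthesis, at 0.53 ± 0.31. The other gene without overlap was Ces2a, a carboxylesterase, at 0.20 ± 0.13. In lung 7 of 9 tested were higher, with a median of 0.20 against -0.01. Only Ppara did not overlap there, at -0.26 ± 0.12. Cyp2c50, at 0.86 ± 0.38, was dim in lung and overlapped. It stood at -3.35, -2.93 and -4.20 on acrylamide 28, 29 and 30, against -4.65 to -3.83 on controls. It was highest on acrylamide 28 and 29 and control 6, where the 8 hepatocyte markers summed to 26.4, 25.2 and 25.6. On the other lung arrays they summed to 13.1 times the 75th percentile or less. The part of that signal in the Cyp2c50 difference was not tested.

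Of 8 genes described as E-box outputs, 7 were higher in liver, with a median of 0.14, and 7 in lung, with a median of 0.32. Beyond the period genes, Noct, a deadenylase-related gene with a daily rhythm, was at 1.11 ± 0.61 in liver and Wee1, a cell cycle kinase, at 0.41 ± 0.24 in lung. Of the genes described as REV-ERB or ROR targets, 7 of 10 were lower in liver, with a median of -0.15, and 5 of 9 tested in lung, with a median of -0.03. Arntl and the dim Cry1 and Npas2 did not overlap in lung, where 10.9% of all genes did not. Fgf21, a hepatic hormone, was at -1.05 ± 0.63 in liver, and Pck1, a gluconeogenic enzyme, at 0.64 ± 0.27 in liver and 0.98 ± 0.84 in lung.

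Genes whose pattern over the 12 arrays was most like that of a member were ranked by the mean absolute difference of log2 values, each gene centred on its tissue mean. The comparison ran over 15796 genes above background on every array. Centring on the tissue mean leaves the acrylamide minus control difference in the pattern. Members were chosen by that difference, so a member near another member supports nothing. For Dbp the nearest were Per3 (0.47), Nr1d2 (0.53), Csrnp1 (0.57), Nr1d1 (0.57) and Mfsd2a (0.62), where Dbp itself deviated from its tissue means by 1.01 on average. Csrnp1 codes for a nuclear protein with transcription factor activity and Mfsd2a for a transporter of lysophospholipids. For Nr1d1 the nearest was its paralogue Nr1d2 (0.15), followed by Per2 (0.31), Pklr (0.31), Arid5a (0.35) and Xpnpep3 (0.35), against a deviation of 0.52. For Nfil3 they were Ppp1r3c (0.12), Pnrc1 (0.13), Ror1 (0.14), Zfp606 (0.15) and Glipr2 (0.16), against 0.37. Ppp1r3c codes for a glycogen-targeting subunit of protein phosphatase 1, and was at -0.71 in liver and -0.45 in lung.

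Genes of other programmes and cell types were looked at over the same groups, and none passed. Of 8 immediate early genes, 5 were lower in liver, with a median of -0.07 log2 units, and 7 in lung, with a median of -0.37. Egr1 was at -3.35 ± 0.97 in liver and -1.33 ± 0.15 in lung. In lung Fosb, Fos and Ier3 were also lower without overlap and Atf3 higher, where 10.9% of all genes did not overlap. Among 7 glucocorticoid-responsive genes, 4 were higher in liver (median 0.42) and 5 in lung (median 0.24). In each tissue 1 did not overlap, where 12.4% of all genes in liver and 10.9% in lung did not. These were Klf9 in liver, at 0.46 ± 0.21, and Fkbp5 in lung, at 0.53 ± 0.19. Fkbp5 lay at -0.53 ± 0.31 in liver with overlap. Zbtb16 had the largest difference of that list in both tissues, at -0.72 ± 0.41 in liver and 0.92 ± 0.58 in lung, and overlapped in both. All 5 macrophage markers were higher in both tissues. Their summed intensity was 37.9 to 41.0 times the 75th percentile on liver acrylamide arrays and 27.4 to 35.8 on liver control arrays, and 35.8 to 41.6 on lung acrylamide and 27.2 to 38.1 on lung control arrays. The neutrophil markers S100a8 and S100a9 summed to 0.361 to 0.925 on liver acrylamide and 1.08 to 3.16 on liver control arrays, and to 7.66 to 16.2 on lung acrylamide and 7.07 to 31.7 on lung control arrays. All 4 erythroid markers were higher in both tissues, with medians of 0.61 in liver and 0.34 in lung, and all 4 B cell markers were lower in both, with medians of -0.69 and -0.19. All 8 hepatocyte markers were higher in lung, with a median of 0.30, and each overlapped. All 4 club cell markers, Scgb1a1 among them, had a higher group mean in liver, with a median of 2.31, but only 1 did not overlap. Their mean level was 2.59 and 2.02 log2 units on liver acrylamide 27 and 29. On liver acrylamide 30 it was -1.12, below the -1.05 to -0.71 of the liver control arrays. The 4 endothelial markers summed to 38.2 to 42.4 on lung acrylamide and 42.9 to 60.9 on lung control arrays. The part of these signals in the differences of the clock factors was not tested.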

How the data were processed

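RNA of 12 tissue samples was labelled with Cy3 and hybridised to 1-colour Agilent arrays, per the labels' protocols. The submitters' processing notes name Feature Extraction 10.7 as the scanner software. The deposited array files give 1 linear intensity per spot, and no source used here tells whether background was subtracted. The authors' deposited series matrix holds the same intensities divided by 1 factor per array, with medians of 65.0 to 89.7. Of 62976 spots, 3671 control spots were left out, 2352 of them spots of spike-in accessions without a gene name. From each log2 value the array's own 75th percentile over the remaining spots was subtracted. Symbols came from RefSeq (GRCm38.p6, names only) through the Entrez number for 38054 spots and the accession for 715, and from the file for 2242. A spot above the 95th percentile of 308 negative controls counted as above background, and spots above it on at least 3 arrays of a fit were tested, the brightest for each gene. Fits used limma 3.58.1 in R 4.3.3, within each tissue for acrylamide and over 12 arrays for the tissue and interaction contrasts, with Benjamini-Hochberg adjustment over all genes. On simulated data they called 2% of 1.5-fold, 24% of 2-fold and 86% of 4-fold changes between acrylamide and control in liver. In lung they called 4%, 48% and 86%, so most changes of 2-fold or less would be missed. These shares hold for the simulated data only. On the arrays themselves liver Dbp, at 5.07-fold, was not called (limma adjusted p = 0.470). The shares may therefore overstate what the fits can call on these arrays. The number of arrays limits the precision. Members and lists were chosen with earlier results of these data known, and the naming rule takes all members, 5 nearest genes by pattern for Dbp, Nfil3 and Nr1d1, and from each list 2 to 4 genes with the largest differences in a tissue. Clock, Ces2a, Atf3, Abca3 and Per2 in liver fall outside that rule and were named after their values were seen. 1 further gene of the core clock and REV-ERB or ROR lists is not reported here and enters no list count. Arrays with a shared number did not deviate together across tissues (r of -0.16 to 0.01 over 23300 genes), and the numbers were not used as pairs. For arrays of unlike number r was -0.07 to 0.13. With so few arrays, such r values cannot tell whether a shared number marks the same mouse.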

Additional observations from a re-analysis of the deposited data

How the results depend on the processing

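The count of called genes in liver was 2 in 1 fit of all 12 arrays and 0 to 1 when an array was left out, against 0. The count for the tissue interaction was 139 with arrayWeights and 0 to 138 when an array was left out, the highest without liver acrylamide 30, against 0, and no member was among the calls. In lung it was 0 throughout. The tissue contrast called 17068 genes in controls and 17445 among acrylamide arrays, and 34729 and 35392 when every spot was tested, since more features entered. Leaving out an array gave 16040 to 18057 and 16189 to 17393. The share of higher calls was 41.9% in controls, against 50.4% with quantile scaling and 31.0% with normexp, and 41.0% among acrylamide arrays, against 50.9% and 32.5%. Liver members without overlap numbered 5, where 12.4% of all genes did not overlap, and 5 to 7 with an array left out. The 7 came without liver acrylamide 30, where 3622 of all 21078 genes were higher without overlap and 4584 lower. Within slide row 2 they numbered 8, but with 1 array a group no gene can overlap, so that count is no result. In lung they numbered 5, where 10.9% of all genes did not overlap, and 5 to 6 with an array left out. Without lung control 4, 1844 of all 22028 genes were higher without overlap and 3529 lower. The lung count was 4 with quantile or median scaling and 7 within each slide row. Within row 1, 6567 of all 22252 genes were higher without overlap and 8227 lower, and within row 2 5627 and 7048. Of the acrylamide differences of members, signs turned for Rora alone: to 0.083 in liver and -0.064 in lung with the mean of spots, to -0.14 within lung slide row 2, and to -0.0024 and -0.052 without lung acrylamide 28 and control 5 (-0.052 to 0.15 with an array left out). In the interaction, Nr1d2 turned to -0.27 with the mean of spots and to -0.23, -0.05 and -0.07 without liver control 3 and lung controls 5 and 6 (-0.23 to 0.44 with an array left out), and Rora to -0.15 with the mean of spots. In lung minus liver, Nr1d2 turned to 0.15 with the mean of spots and 0.14 without liver control 3 (-0.53 to 0.14 with an array left out) in controls, and to 0.13, 0.030 and 0.031 with quantile scaling, median scaling and arrayWeights among acrylamide arrays. Dbp turned to -0.077, -0.090 and -0.062 (-0.090 to 0.33 with an array left out) there without liver acrylamide 29, liver acrylamide 30 and lung acrylamide 30, and Bhlhe41 turned with normexp to -0.72 and -0.35. With the title number as a replicate block, 0 genes were called for the interaction and 16868 and 17018 for the tissue contrasts, and Nr1d1 then passed in controls at -0.95 (limma adjusted p = 0.0352). Nr1d1 in controls also passed with normexp, with the filter on every array, with an intensity trend and with spike-in accessions kept (limma adjusted p of 0.0111 to 0.0479), as did Dbp with median scaling and an intensity trend (limma adjusted p = 0.0477 and 0.0462). The setting that keeps the spike-in accessions was chosen after seeing the data. The cause of these changes was not tested, and signal below background limits Bhlhe41 in liver.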
